A study of Mus musculus with 5 samples.

Results

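Runx3-bound regions that were centred in a short gap between neighbouring H3K4me1-marked regions were examined in IL-2-activated CD8-TC (CD8+ T cells). Of the 9135 Runx3-bound regions, 458 (5.01%, 95% Wilson interval 4.58 to 5.48%) had their centre in a gap of under 1000 bp between the end of an H3K4me1-marked region and the start of the next one on the same chromosome. These gap-centred regions were thus chosen by the positions of both peak lists, and their position relative to H3K4me1 is a description and not a finding. They were compared with the 4227 mark-centred regions, whose centre lay inside an H3K4me1-marked region, and with the remaining 4450 Runx3-bound regions, centred outside marked regions and short gaps. DNA sequence and gene annotation were not used by the selection.

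Runx3 is a transcription factor of the RUNX family that is required for the development and function of cytotoxic T cells, and it binds DNA through its runt domain at the RUNX motif. H3K4me1, the monomethylated form of lysine 4 of histone H3, is carried by nucleosomes around enhancers, and an occupied enhancer often shows a dip in this mark where transcription factors take the place of a nucleosome. ETS family factors and AP-1, a dimer of Fos and Jun family proteins, bind enhancers of T cells beside RUNX factors.

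The cells were splenic CD8+ T cells of wild-type ICR mice, isolated with anti-CD8 magnetic beads, TCR-activated for 2 days with plate-bound anti-CD3e and soluble anti-CD28 and then kept for 4 days with 100 u/ml IL-2. ChIP-seq was performed with anti-Runx3 antibody (2 libraries), with non-immune serum as control (NIS, 2 libraries) and with anti-H3K4me1 antibody (1 library in the labels, although the protocol speaks of replicate experiments for both antibodies). Each antibody had a single peak list, called on the reads of its libraries together and deposited as positions only. No value below has a replicate error, the reads behind a region are unknown, and all intervals are 95% intervals for counting error among regions (Wilson for a share, Newcombe for a difference of shares). The age and sex of the mice and the number pooled are not given in the sources used here.

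The sequence at the centre of gap-centred regions is shown for genes of T cell signalling and migration, to show how the motif that Runx3 binds is placed in a gap. The stretches are the central 100 bp of regions at Il4ra (chr7:132724812-132724911), Jak1 (chr4:100860196-100860295), Ccr7 (chr11:99009255-99009354), Cblb (chr16:52129692-52129791), Tnfsf10 (chr3:27221631-27221730) and Nfatc2 (chr2:168356973-168357072), read from the plus strand of mm9. Capitals mark RUNX motifs on either strand, in the variants TGTGGT (variant 1), TGTGGC (variant 2), TGCGGT (variant 3) and TGCGGC (variant 4), so that variant 1 on the minus strand reads ACCACA and variant 2 reads GCCACA.
Il4ra: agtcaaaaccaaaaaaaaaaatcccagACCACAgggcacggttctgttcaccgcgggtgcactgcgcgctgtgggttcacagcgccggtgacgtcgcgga
Jak1: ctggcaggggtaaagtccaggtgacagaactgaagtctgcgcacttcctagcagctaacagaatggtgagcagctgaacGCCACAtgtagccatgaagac
Ccr7: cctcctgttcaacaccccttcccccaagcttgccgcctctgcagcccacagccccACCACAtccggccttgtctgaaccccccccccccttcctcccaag
Cblb: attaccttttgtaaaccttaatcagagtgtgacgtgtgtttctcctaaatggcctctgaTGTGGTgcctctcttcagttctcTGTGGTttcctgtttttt
Tnfsf10: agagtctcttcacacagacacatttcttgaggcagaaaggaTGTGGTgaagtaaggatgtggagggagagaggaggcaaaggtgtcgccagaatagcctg
Nfatc2: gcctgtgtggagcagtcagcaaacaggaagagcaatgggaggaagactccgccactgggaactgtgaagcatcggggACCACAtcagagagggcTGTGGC
All 100 bases lay in the gap at 5 of these genes, and 74 of the 100 bases did so at Ccr7. Cblb held 2 copies of TGTGGT, the most frequent variant in gap-centred regions. Nfatc2 held a TGTGGT and a TGTGGC in opposite orientation close to each other. Of the gap-centred regions at genes of the T cell lists, the 8 with most RUNX motifs in the central 200 bp were taken, the shorter gap first among equal numbers. This left out Zap70, which had 2 motifs in a longer gap, and Nfatc1, which lies on a chromosome whose sequence is not printed here. The regions at Il21r and Bach2 were among the 8 and had 2 RUNX motifs each in their central 200 bp but 0 in the central 100 bp, and are not printed.

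Short gaps were a frequent feature of the H3K4me1 list. Its 18992 H3K4me1-marked regions left 18972 gaps, of which 4093 were short, with a length of 1 to 998 bp and a median of 166 bp. Such a gap is an interval between called peaks and not a measured dip in the mark. Of the short gaps, 1467 were under 100 bp, shorter than the DNA fragments of 300 bp. How far peak calling and read depth made the gaps was not tested. A Runx3 centre lay in 455 of them (11.1%, interval 10.2 to 12.1%), and 3 of these held 2 centres. A further 612 short gaps held no centre but were reached by a Runx3-bound region centred beside them, so that 1067 gaps had any Runx3-bound base and 42.6% of these held the centre. The gaps of the 458 gap-centred regions had a median length of 300.5 bp (quartiles 168.2 and 549.2 bp, range 10 to 990 bp), and the 3638 gaps without a Runx3 centre had a median of 148 bp.

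The share of gaps with a Runx3 centre was 3.20% (interval 2.42 to 4.23%) for gaps under 100 bp, 12.1% (10 to 14.6%) for gaps of 100 to 200 bp and 18.4% (15.1 to 22.1%) for gaps of 200 to 300 bp. From there it stayed between 14% and 18.8% up to 1000 bp, with intervals that overlapped among all these length classes. Beyond the limit it was 13.5% for gaps of 1000 to 2000 bp, 10.6% for gaps of 2000 to 5000 bp, 11.1% for gaps of 5 to 20 kb and 32.6% for gaps of 20 kb or more. Longer gaps offer more room for a centre, and the number of centres per Mb of gap fell from 838 in gaps of 100 to 200 bp to 150 in gaps of 900 to 1000 bp, 36.4 in gaps of 2000 to 5000 bp and 1.41 in gaps of 20 kb or more.

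**Figure D1:**
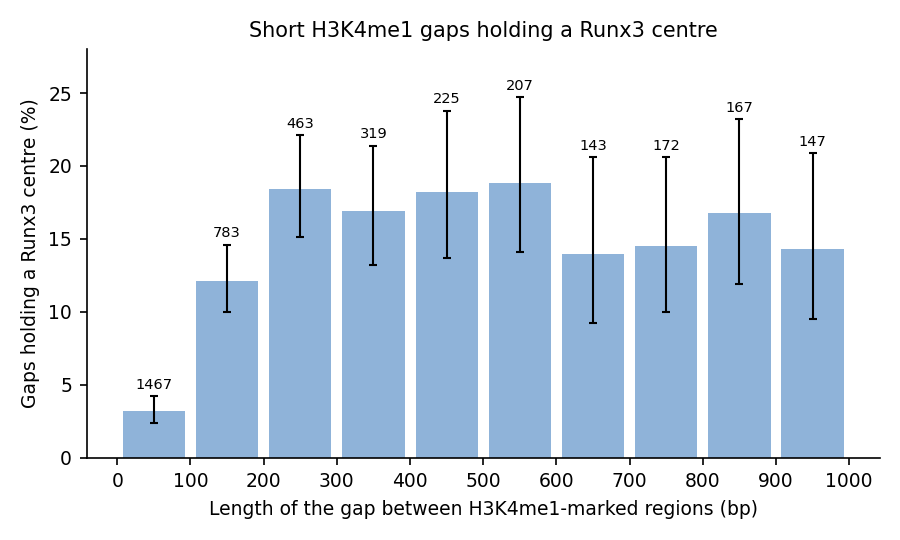
Share of short H3K4me1 gaps that held a Runx3 centre (y axis, %) by gap length in classes of 100 bp (x axis). Bars are shares, lines are 95% Wilson intervals and the number of gaps stands above each bar; the share is 3.20% under 100 bp and between 12.1% and 18.8% in the longer classes.

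Per length of sequence, Runx3 centres numbered 411 per Mb of short gap, 119 per Mb of H3K4me1-marked sequence and 1.77 per Mb elsewhere. The flanks shared this density close to the gap. The 150 bp of marked sequence that faced a short gap held 391 centres per Mb, compared to 69.6 in the 150 bp of marked sequence at edges that faced no short gap and 80.3 in the first 150 bp outside those edges. Within gaps of 100 to 300 bp there were 793 centres per Mb, and 425 in the adjoining 150 bp of their flanks. Within gaps of 300 to 1000 bp the values were 280 and 213. The central 200 bp of H3K4me1-marked regions held 176 per Mb.

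Around the midpoints of all 4093 short gaps the density was 540 and 621 centres per Mb in the 100 bp on the left and right side. It fell to 83.1 and 48.9 per Mb at 600 to 700 bp, below the mean of marked sequence. Around the midpoints of H3K4me1-marked regions of at least 2 kb it reached 243 and 246 per Mb, with a broader slope. These values describe the arrangement that the selection used and carry no test.

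**Figure D2:**
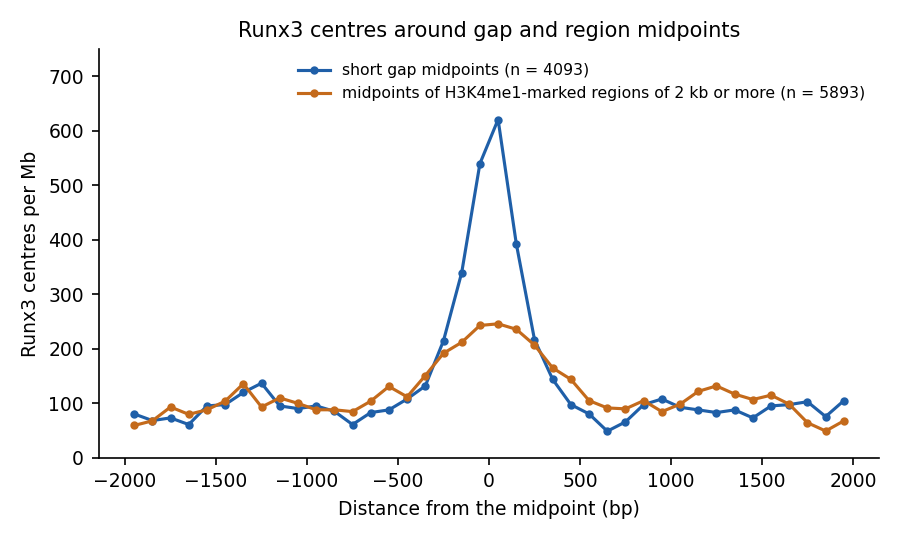
Runx3 centres per Mb (y axis) in bins of 100 bp by distance from the midpoint (x axis, bp) of 4093 short gaps (blue) and of 5893 H3K4me1-marked regions of at least 2 kb (orange). The density at the gap midpoint reaches 621 per Mb and that at the region midpoint 246 per Mb.

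A centre in the gap did not mean a region apart from the mark. Of the 458 gap-centred regions, 433 (94.5%, interval 92.1 to 96.3%) had 1 or more bp in common with H3K4me1-marked sequence, and 290 (63.3%, 58.8 to 67.6%) covered the whole gap and reached into both flanks. Another 143 (31.2%) reached 1 flank, and 25 (5.46%) lay wholly in the gap. The median region had 51.28% of its width in marked sequence. Centres were spread over the gap. Its 5 equal parts from left to right held 17.7%, 20.3%, 19.4%, 23.4% and 19.2% of the centres, and the median distance from the midpoint was 60.5 bp.

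Gap-centred regions were wide. Their median width was 614.5 bp (quartiles 513.2 and 741.2 bp, range 237 to 1881 bp), compared to 525 bp (435 and 632 bp) in mark-centred regions and 507 bp (411 and 621 bp) in the remaining ones. The widest lay on chromosome 18 (chr18:4294433-4296313, 1881 bp) in an intergenic gap of 830 bp, 57.6 kb downstream of the start of Map3k8, a kinase of the MAP kinase cascade. The next lay in E2f2 (chr4:135733170-135734990, 1821 bp), which encodes a cell cycle transcription factor, over a gap of 795 bp. It was followed by regions near the starts of Pdcd4 (1282 bp, gap of 173 bp), Smu1 (1280 bp, gap of 878 bp) and Adora3 (1246 bp, gap of 945 bp). Wide regions thus lay over gaps from 173 to 945 bp.

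The shortest gap with a Runx3 centre had 10 bp, in an intron 10.2 kb downstream of the start of Anxa6 (chr11:54836480-54837061), where 98.3% of the Runx3-bound region was marked sequence. The next shortest gaps, of 13, 18 and 21 bp, lay in introns nearest to the starts of Tbc1d2b, Fgr and Akap13. Of the pair of gaps of 26 bp, one was intronic and nearest to the start of Rxra, and the other was intergenic and nearest to that of Rcsd1. At least 95.0% of each of these regions was marked. At the other end, the longest gaps had 990, 989, 986, 986 and 972 bp. The longest lay 165 kb upstream of the start of Bcl6, which encodes a transcriptional repressor, and that region (chr16:24153992-24154452) shared no base with H3K4me1. Just outside the limit, Runx3 centres lay in gaps of 1004, 1007, 1010, 1025 and 1029 bp, nearest to the starts of Ppp3cc, Dnajc9, Ppp6r1, Arid5a and Inpp4b. The limit of 1000 bp therefore divided a continuous series of gap lengths. The gaps with 2 centres lay in Rcsd1 (839 bp), in Hip1 (883 bp) and in an intron on chromosome 19 (887 bp).

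The H3K4me1-marked regions on either side had widths close to those of all marked regions. The left and right flanks had a median width of 1706 and 1617 bp at gaps with a Runx3 centre and of 1674 and 1645 bp at gaps without one, and all H3K4me1-marked regions had a median of 1592 bp. When marked regions closer than 1000 bp were joined, 2966 domains of at least 2 regions were formed, and 436 of them (14.7%, interval 13.5 to 16%) held a gap-centred region. A flanking region held a Runx3 centre of its own at 80 of the 455 occupied gaps (17.6%) and at 1555 of the 3638 gaps without a centre (42.7%). Among all H3K4me1-marked regions, a Runx3 centre lay in 21.4% of the 7059 that bordered a short gap and in 21.0% of the 11933 that bordered none, a difference of 0.472 percentage points (interval -0.725 to 1.68). A centre in a short gap is by definition not in the marked region beside it. These shares therefore rest on positions that the selection used, and no conclusion was drawn from their difference.

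Nearness to other Runx3-bound regions was also counted. Another Runx3 centre within 10 kb was found for 225 of 458 (49.1%), compared to 39.3% of mark-centred regions (difference 9.81 percentage points, interval 5.02 to 14.6) and 26.3% of the remaining ones (difference 22.8, interval 18.1 to 27.5). The selection required marked regions under 1000 bp apart around each gap-centred region and not around the others. These differences are thus a description and carry no test. By chromosome, the share of Runx3-bound regions that were gap-centred ranged from 3.22% to 7.44% over the autosomes. On X it was 1 of 93, and X had only 2 short gaps.

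Because only uniquely aligned reads had been kept, a gap in H3K4me1 can also be a stretch of repeated sequence. The share of 32-base words that occur once in the genome was therefore computed. It averaged 96.37% in the 455 occupied gaps, 86.53% in the 3638 gaps without a Runx3 centre and 97.04% in H3K4me1-marked regions. Under 90% of the words were unique in 54 occupied gaps (11.9%) and in 1056 gaps without a centre (29.0%), a difference of -17.2 percentage points (interval -20.2 to -13.6). Runx3 peaks were also called on uniquely aligned reads only, so repeated sequence can keep a Runx3 centre out of a gap too. This difference is therefore a description, and its cause was not tested. When only gaps with at least 90% unique words were counted, 13.4% were occupied and the density was 531 centres per Mb. Of the gap-centred regions themselves, 8.52% had under 90% unique words, compared to 5.11% of mark-centred regions. The part of alignment in the gaps of the H3K4me1 list was not tested beyond these values.

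The distance from the nearest TSS was close to that of mark-centred regions. The nearest TSS was under 1 kb away for 31 of them (6.77%), 1 to 5 kb for 78 (17.0%), 5 to 50 kb for 280 (61.1%) and 50 kb or more for 69 (15.1%). The share under 1 kb was 1.75% (8 regions) when 1 start per protein-coding gene was used in place of all transcript starts, and 12.2% when gaps under 2000 bp were taken. With all starts and the limit of 1000 bp, the share under 1 kb differed from that of mark-centred regions (7.10%) by -0.329 percentage points (interval -2.45 to 2.45), and from that of the remaining regions (46.6%) by -39.8 points (interval -42.3 to -36.8). The centre lay in an intron for 235 (51.3%), between genes for 204 (44.5%), in a coding exon for 9, in a UTR for 6 and in a noncoding exon for 4. The intron share was 52.6% for mark-centred regions and 35.8% for the remaining ones.

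A TSS lay in 68 of the 4093 short gaps, and 15 of these gaps (22.1%, interval 13.8 to 33.3%) held a Runx3 centre, compared to 440 of the 4025 gaps without a TSS (10.9%, 10 to 11.9%). Gaps with a TSS were seldom very short. Among gaps of at least 100 bp the shares were 23.1% (14.5 to 34.6%) and 15.3% (14 to 16.8%), and these intervals overlapped. Of the 31 gap-centred regions under 1 kb from a TSS, 15 had that TSS in the gap. The region at Tnfrsf9 was of this kind and is described with its gene list.

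RUNX motifs were then counted in the sequence, which the selection had not used. A RUNX motif was found anywhere in 435 of the 458 gap-centred regions (95.0%) and in the gap part of 363 of them (79.3%). The share with a motif anywhere was close to this in mark-centred regions (94.2%) and was 90.8% in the remaining ones. In the gap part there were 694 motifs in 137.8 kb, or 5.04 per kb, compared to 448 motifs in 154.3 kb, or 2.90 per kb, in the part of the same regions that overlapped the flanks. Since the gap part holds the centre, it is also the part where the motif lies in any Runx3-bound region. The median distance from the centre to the nearest RUNX motif was 42 bp (quartiles 17.8 and 76.5 bp), and it was 36.5 bp in mark-centred and 39.5 bp in the remaining regions.

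Gaps with and without a Runx3 centre were compared in motif content. The split was by Runx3 binding, and the RUNX motif is the sequence that Runx3 binds. Differences in the RUNX motif and its modules therefore follow from the split, describe bound against unbound sequence and carry no test. Between distal mark-centred regions and all distal H3K4me1-marked regions, the shares with a RUNX motif were likewise 82.1% and 37.9%. Windows at the middle of gaps of at least 200 bp held a RUNX motif in 193 of 313 occupied gaps (61.7%) and in 433 of 1530 gaps without a centre (28.3%), a difference of 33.4 percentage points (interval 27.4 to 39.0). An ETS motif (AGGAAA and its variants AGGAAG, the form CGGAAA and the form CGGAAG, on either strand) was found in 66.1% and 43.5% (difference 22.7, interval 16.7 to 28.3). A RUNX-RUNX module, a pair of RUNX motifs at most 50 bp apart that share no base, was found in 15.0% and 1.57% (difference 13.4, interval 9.84 to 17.9). An ETS-RUNX module was found in 28.4% and 8.95% (difference 19.5, interval 14.5 to 24.9), and an AP-1 motif (TGACTCA on either strand) in 7.03% and 3.66% (difference 3.37, interval 0.797 to 6.85). The gaps without a centre were also the less unique ones, as given above.

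Around the midpoints of occupied gaps, RUNX motifs numbered 5.91 and 4.68 per kb in the 100 bp on the left and right side, and 1.98 and 1.91 per kb at 900 to 1000 bp. Around the midpoints of gaps without a Runx3 centre the values were 2.15 and 2.07 per kb, and 2.19 and 2.08 at 900 to 1000 bp. ETS motifs numbered 5.67 and 5.85 per kb in the middle of occupied gaps and 4.58 and 4.29 in the middle of the others, and lay between 3.08 and 3.78 per kb at 900 to 1000 bp and at 800 to 900 bp in either group. Short gaps without a Runx3 centre thus showed no rise of RUNX motifs, whereas the number of ETS motifs was higher at the middle of both kinds of gap than 1 kb away. In gaps of at least 100 bp without a centre, RUNX motifs numbered 1.83 and 1.75 per kb in the middle and 2.09 and 2.01 at 900 to 1000 bp. The ETS rise was smaller there, with 4.06 and 4.17 per kb compared to 3.55 and 3.46.

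**Figure D3:**
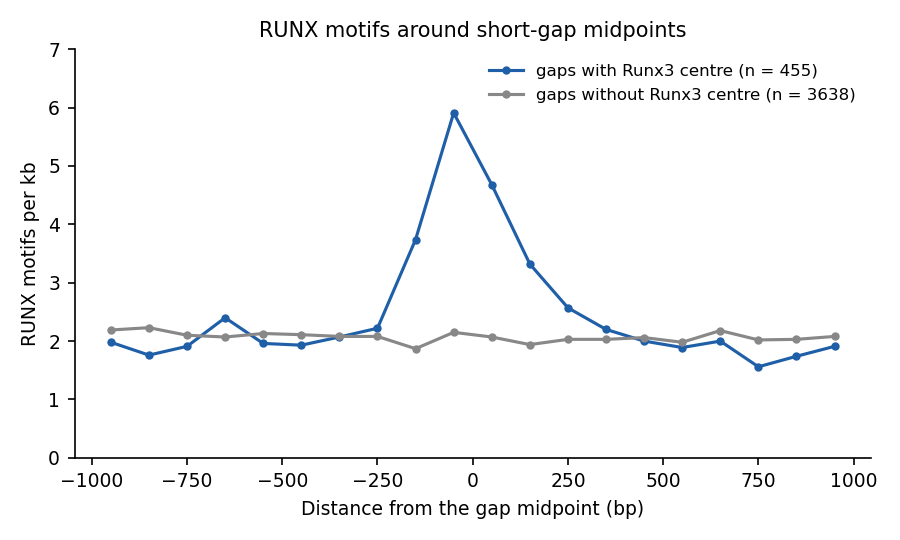
RUNX motifs per kb (y axis) in bins of 100 bp by distance from the midpoint of short gaps (x axis, bp), for 455 gaps with a Runx3 centre (blue) and 3638 without (grey). The occupied gaps reach 5.91 motifs per kb at the midpoint and the others stay near 2.15 per kb.

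Next, the central 200 bp of distal regions, over 5 kb from a TSS, were compared, with 349 gap-centred, 3081 mark-centred and 1722 remaining regions. As a background, the central 200 bp of 12467 distal H3K4me1-marked regions held a RUNX motif in 37.9% and an ETS motif in 52.2%. A RUNX motif was found in 78.5% of gap-centred and 82.1% of mark-centred regions, a difference of -3.61 percentage points that was not distinguishable from 0 (interval -8.40 to 0.617). This difference depended on the setting. Its interval lay below 0 with 1 start per gene (-5.07, interval -9.53 to -1.08), with gaps under 2000 bp (-4.88, -9.19 to -0.985) and with regions of at least 90% unique words (-4.79, -9.85 to -0.320), and the sign turned when whole regions were searched (1.00, -1.89 to 3.02). Whole regions are windows of unequal length, with a median width of 614.5 bp in all gap-centred and 525 bp in all mark-centred regions. The variant TGTGGT was less frequent, with 58.2% compared to 65.4% (difference -7.20, interval -12.7 to -1.87), and so was the RUNX-RUNX module, with 23.2% compared to 28.3% (difference -5.09, interval -9.52 to -0.134). An ETS motif was more frequent, with 73.6% compared to 67.6% (difference 6, interval 0.871 to 10.7), although in the central 100 bp the interval held 0 (difference 3.58, interval -1.90 to 9.10). The GC box GGGCGG was also more frequent, with 8.02% compared to 4.25% (difference 3.77, interval 1.24 to 7.16). The ETS-RUNX module (46.7% and 41.8%, difference 4.87, interval -0.591 to 10.4), the AP-1 motif (9.74% and 7.89%) and the AP-1-RUNX module (5.16% and 4.51%) did not differ detectably. The intervals were not adjusted for the 11 motifs and modules compared, and motifs were counted independently of each other. Some of the intervals that held no 0 had a limit close to 0.

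Compared with the 1722 remaining distal regions, gap-centred regions had an ETS motif more often by 12.0 percentage points (73.6% and 61.6%, interval 6.66 to 17.0) and an ETS-RUNX module more often by 8.49 (46.7% and 38.2%, interval 2.83 to 14.2). The RUNX-RUNX module was less frequent (23.2% and 30.8%, difference -7.63, interval -12.3 to -2.46). The RUNX motif itself differed by -1.98 points (interval -6.93 to 2.46). The 2 other differences from mark-centred regions were not detectable here. TGTGGT was found in 58.2% and 61.4% (difference -3.27, interval -8.98 to 2.29) and the GC box in 8.02% and 7.43% (difference 0.59, interval -2.17 to 4.11).

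**Figure D4:**
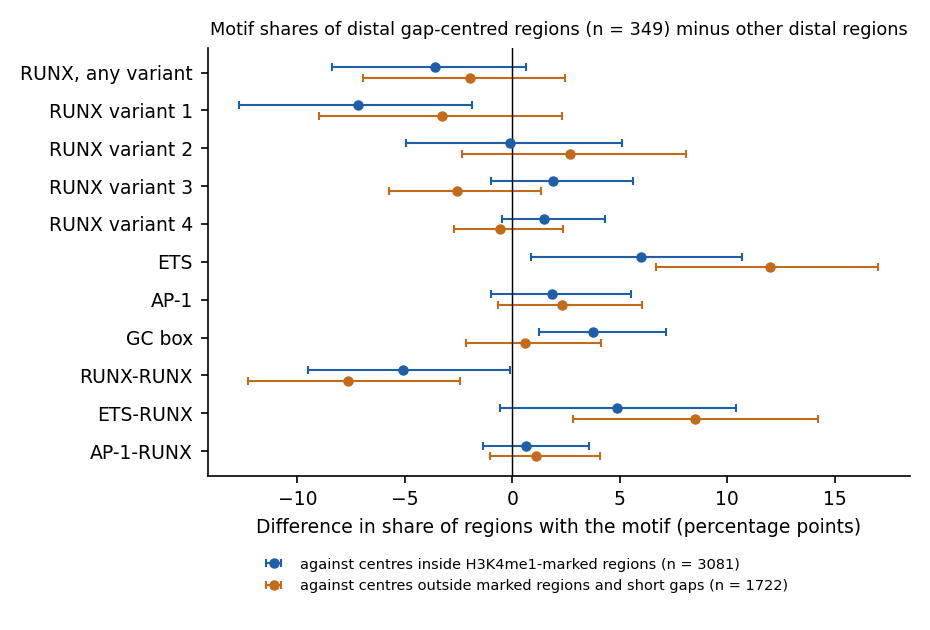
Difference in the share of regions with each motif or module (x axis, percentage points) between 349 distal gap-centred regions and 3081 distal mark-centred (blue) or 1722 remaining distal regions (orange), with 95% Newcombe intervals. RUNX variants 1 to 4 carry the numbers given with the printed sequences; the ETS difference is above 0 and the RUNX-RUNX difference below 0 in both comparisons.

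GC content was examined beside these differences, since the central 200 bp of all gap-centred regions averaged 49.9% GC and those of mark-centred regions 48.73%. In windows under 46% GC, TGTGGT was found in 69.6% of gap-centred and 69.1% of mark-centred distal regions. In windows of 51% GC or more it was found in 46.2% of 143 and 61.3% of 1038 (difference -15.1 percentage points, interval -23.6 to -6.42), and any RUNX motif in 73.4% and 84.4% (difference -11.0, interval -19.0 to -4.01). The lower RUNX share was therefore seen in GC-rich windows, and the difference between the GC classes was not tested. The ETS motif was 5.31, 5.90 and 5.25 points more frequent from the lowest to the highest class, each with an interval that held 0.

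Under 1 kb from a TSS there were only 31 gap-centred regions. Of these, 9 (29.0%) held a GC box, compared to 20 of 300 mark-centred regions (6.67%, difference 22.4 percentage points, interval 8.99 to 40.1) and 950 of 2073 remaining ones (45.8%, difference -16.8, interval -29.9 to 0.894). The RUNX motif was found in 74.2%, 81% and 71%, and with so few regions these shares could not be told apart.

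Among the gap-centred regions themselves, those in gaps under 300 bp (n = 227) and in longer gaps (n = 231) had a RUNX motif in 78.9% and 77.5% (difference 1.37 percentage points, interval -6.21 to 8.91) and an ETS motif in 71.8% and 74.5% (difference -2.65, interval -10.7 to 5.45). The AP-1 motif was found in 11.9% and 6.49% (difference 5.40, interval 0.0688 to 10.9) and the AP-1-RUNX module in 7.05% and 2.16% (difference 4.88, interval 1.02 to 9.16). The variant TGCGGC was found in 3.08% and 8.23% (difference -5.14, interval -9.69 to -0.867). The AP-1-RUNX shares rest on 16 and 5 regions. This split took regions at any distance from a TSS, and its intervals were not adjusted for the 11 motifs and modules compared.

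A gap-centred region lay in or within 5 kb of 303 of 22350 protein-coding genes (1.36%), compared to 5256 genes (23.5%) for any Runx3-bound region. The genes with a gap-centred region were long, with a median of 58.8 kb, compared to 28.22 kb for genes with any Runx3-bound region and 15.43 kb for all genes. When genes were divided by length, 0.336% of those up to 7.446 kb, 0.980% of those up to 29.37 kb and 2.75% of the longer ones had a gap-centred region. In 21 genes there were 2, among them Cblb, Nedd9 and Pde4d, and 170 of the 458 regions lay at no protein-coding gene.

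Genes of CD8-TC function were described by 8 lists, of which 191 genes were annotated. Of these, 23 (12.0%) had a gap-centred region and 149 (78%) any Runx3-bound region, against 1.36% and 23.5% of all protein-coding genes. Among genes over 29.37 kb, the share with a gap-centred region was 14 of 81 list genes (17.3%, interval 10.6 to 26.9%) and 191 of 7369 other genes (2.59%, 2.25 to 2.98%). Of the Runx3-bound regions at list genes, 24 of 341 (7.04%) were gap-centred, compared to 264 of 6180 (4.27%) at other protein-coding genes, a difference of 2.77 percentage points (interval 0.441 to 6.02). The lists were chosen with earlier results of these data known, and several regions can belong to the same gene. The shares at list genes are therefore a description, and the interval tests no excess. Lists of genes of other cell types were read as a comparison. Of 31 annotated genes of B cells, myeloid cells, NK cells and distant tissues, 0 had a gap-centred region. This allows a share of up to 9.68% (an approximate limit and not a Wilson limit). The NK cell list included Klrk1, which the authors report as regulated by Runx3 in IL-2-activated CD8-TC too. Any Runx3-bound region was found at 2 of 7 B cell genes, 1 of 7 myeloid genes, 2 of 7 NK cell genes and 0 of 10 genes of distant tissues.

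Cytokine receptors and JAK-STAT signalling had 6 of 33 genes with a gap-centred region. At Jak1, the kinase bound to many cytokine receptors, the region (chr4:100859866-100860625) lay in an intron 77.6 kb downstream of the gene start, over a gap of 451 bp, and reached 142 and 167 bp into the flanks. Il4ra, the IL-4 receptor chain, had a region (chr7:132724520-132725204) beyond its end with 3 RUNX motifs in the central 200 bp. Il21r, the IL-21 receptor and the neighbour of Il4ra, also had a region beyond its end (chr7:132778950-132779527), over a gap of 244 bp. The regions of Il12rb2, the signalling chain of the IL-12 receptor, and Ifngr2, a chain of the interferon gamma receptor, were intronic and covered gaps of 142 and 123 bp. The region of Socs1, an inhibitor of JAK kinases, lay 3.02 kb upstream of its start over a coding exon, and the nearest gene start was that of Tnp2. The regions of this list covered their gap in full at all 6 genes.

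TCR complex and signalling had 5 of 30 genes. Their gaps had 327 to 922 bp, except at Csk. Zap70, the kinase recruited to the TCR, had an intronic region 5.21 kb downstream of its start (chr1:36823545-36824254) in a gap of 684 bp. Cd247, the zeta chain of the TCR complex, had one in a gap of 922 bp (chr1:167774926-167775862) with 10% of its width in marked sequence. The intronic region of Lcp2, the adaptor SLP-76, lay in a gap of 825 bp and was centred 238 bp from its midpoint. Cblb, a ubiquitin ligase that restrains TCR signalling, had 2 intronic regions, 6.83 and 98.1 kb downstream of its start, in gaps of 809 and 327 bp. Csk, a kinase that inhibits Lck, had a region 2.08 kb upstream of its start in a gap of 116 bp, with 0 RUNX motifs in the central 200 bp and 84.4% unique words.

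Costimulatory and inhibitory receptors had 2 of 17 genes. At Tnfrsf9, the costimulatory receptor 4-1BB, the region (chr4:150288412-150288988) was centred 0.0295 kb from the gene start in UTR sequence. It lay in a gap of 704 bp between marked regions of 2247 and 1187 bp and overlapped only the right one, by 13 bp or 2.25% of its width. Cd226, an activating receptor, had an intronic region on chromosome 18 in a gap of 465 bp. Migration and adhesion had 2 of 19 genes. Ccr7, the receptor for homing to lymph nodes, had an intronic region (chr11:99009021-99009588) over a gap of 149 bp, and Cxcr3, a chemokine receptor of effector T cells, had one 3.16 kb upstream of its start (chrX:98932384-98933147) over a gap of 200 bp. The latter was centred 3 bp from the midpoint of the gap and was the gap-centred region on X.

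Among transcription factors, the RUNX and ETS family list had 2 of 15 genes. Fli1, an ETS factor, had an intronic region (chr9:32314431-32315458) of 1028 bp over a gap of 269 bp, next to a marked region of 14982 bp. Runx2 had an intronic region of 1128 bp over a gap of 239 bp, 245 kb downstream of its start, and the nearest gene start was that of Supt3h. The regions of both genes had 0 RUNX motifs in the central 200 bp. Of 48 other T-lineage transcription factors, 5 had a gap-centred region, all intronic. Nfatc2 and Nfatc1, calcium-regulated factors of TCR signalling, had regions in gaps of 502 and 242 bp with 2 RUNX motifs each. Nfkb1 had a region of 1109 bp over a gap of 535 bp, Bach2, a repressor of effector differentiation, one over a gap of 382 bp, and Fosl2, a subunit of AP-1, one over a gap of 144 bp.

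Cytotoxic effectors had 1 of 17 genes, Tnfsf10, which encodes the death ligand TRAIL, with an intronic region (chr3:27221295-27222066) over a gap of 379 bp. Cytokines and chemokines had 0 of 12, which allows a share of up to 25% (an approximate limit and not a Wilson limit). Of these 12 genes, 9 had some Runx3-bound region. The counts of all lists depend on the window of 5 kb. Beyond it, for example, gap-centred regions were nearest to the starts of Ccl3 (8.98 kb away), Xcl1 (24.7 kb) and Ifng (159 kb). Others were nearest to the starts of Gzmb (22.3 and 34.8 kb) and Runx3 (40.2 kb). The median gene length was 3.26 kb in the list of cytokines and chemokines and 6.24 kb in that of cytotoxic effectors, and 28.7 and 30.7 kb in those of cytokine receptors and TCR signalling. Shares of the lists were therefore not compared with each other.

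**Figure D5:**
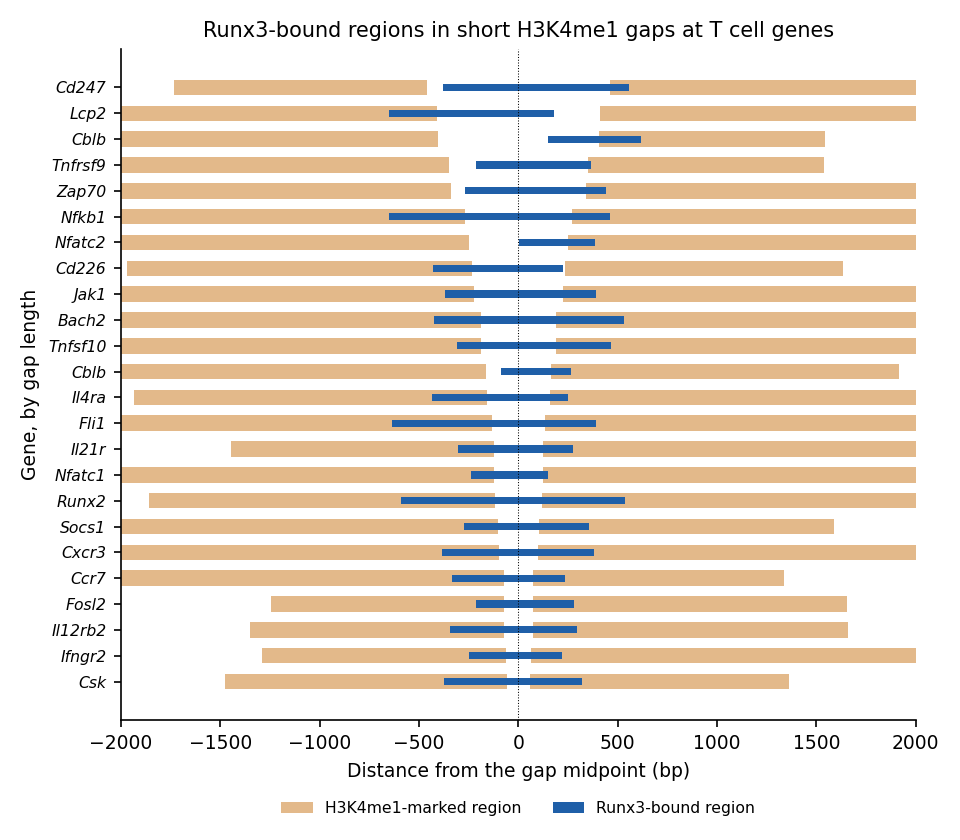
The 24 gap-centred Runx3-bound regions at genes of the T cell lists (dark blue) with the H3K4me1-marked regions on either side (light brown), aligned on the midpoint of the gap (x axis, distance in bp, cut at 2000 bp) and ordered by gap length, the shortest at the bottom. The gap is 116 bp at Csk and 922 bp at Cd247; the Runx3-bound region reaches both flanks at the shorter gaps.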

How the data were processed

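The authors aligned reads of 40 to 42 bp to mm9 with ELAND, kept unique alignments, joined the reads of repeats and called peaks with MACS version 1.4 against joined NIS reads, scaling the larger set to the smaller. They deposited the start and end position in bp of each peak, in 1 list per antibody, with 0 score columns. Joining hides the spread between repeats, and loss of non-unique reads can open gaps in H3K4me1.

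Gaps ran from the end of a marked region to the start of the next one. Coordinates count from 1. Sequence was NCBIM37 (mm9), with GENCODE vM1 annotation. Motifs were searched on both strands in the central 200 bp, and uniqueness was the share of 32-base words found once. Functions were tested on simulated data. Python 3.11.15, NumPy 2.4.6, pandas 2.3.3, statsmodels 0.14.6 and numba 0.67.0 were used. Regions and gene lists were chosen with earlier results of these data known. Named regions were those at list genes, the 5 widest, those in the 5 shortest and 5 longest gaps or sharing a gap, and those nearest the limit. Gfi1 and Spi1 had no annotation under these names.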

Additional observations from a re-analysis of the deposited data

How the results depend on the processing

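Each value was recomputed under other settings, 29 times in all for 7 results, and the sign turned in 1, the RUNX difference. The share of Runx3-bound regions centred in a gap was 3.52% for gaps under 500 bp, 7.06% for gaps under 2000 bp and 0.274% when the whole region had to lie in the gap. The share of gaps with a Runx3 centre was 9.89% under 500 bp, 26.1% when any base counted, 13.4% for gaps with at least 90% unique words and 15.5% for gaps of at least 100 bp, a setting chosen after seeing the data. With motifs counted in the whole region, the RUNX share of distal gap-centred regions minus that of mark-centred ones was 1.00 percentage point (interval -1.89 to 3.02), whereas the reported difference was -3.61. Gap-centred regions are wider, so this setting searched more sequence in them. The share under 1 kb from a TSS was 1.75% with 1 start per protein-coding gene and 12.2% for gaps under 2000 bp. Overlap with H3K4me1 was 90.4% with at least 50 bp and 63.3% with both flanks. Genes with a gap-centred region made up 1.08% within the gene only and 2.14% within 20 kb. The ETS difference was 3.58 percentage points (interval -1.90 to 9.10) in the central 100 bp, which held 0. The RUNX difference was -5.07 (interval -9.53 to -1.08) with 1 start per gene, -4.88 (-9.19 to -0.985) for gaps under 2000 bp and -4.79 (-9.85 to -0.320) for regions with at least 90% unique words, a setting added after seeing the data, and these held no 0. Other settings stayed within the interval of the reported value.

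No paired analysis was possible because peaks had been called on joined reads, so that no list belongs to a numbered replicate. Leaving out a replicate was not run for the same reason, and a stricter peak score was not run because the lists hold none.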
